A study of Mus musculus with 6 samples.

Results

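Transcripts of 10 Krüppel-like factor genes (Klf2, Klf3, Klf4, Klf5, Klf6, Klf7, Klf9, Klf10, Klf11 and Klf13) were followed in mouse brain microvascular endothelial cells exposed to the cytokine IL-36β. The genes were taken by symbol from a table of 54532 genes, all 10 were found, and all 10 passed the filter on low values that left 12618 genes for testing. The IL-36β group held 3 libraries of cells given processed DEVD mIL-36β at 100 ng/ml for 24 h, and the untreated group held 3 libraries of cells left without it. Both groups were primary cultures from brain vessel fragments of wild-type C57BL/6J mice that were seeded in medium with puromycin. The labels state neither a vehicle nor a time for the untreated cells. Library names end in a number, as in A0 (untreated) and A24 (IL-36β). Time in culture and IL-36β therefore cannot be told apart. Nothing in the labels ties a library to an animal or a culture, so each p-value reflects library-to-library spread, part of which may be technical.

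Krüppel-like factors are transcription factors that bind GC-rich and CACCC elements through a block of zinc fingers at the C terminus. In endothelium KLF2 and KLF4 are known as flow-responsive factors: laminar flow raises them through the kinases MEK5 and ERK5 and the MEF2 factors, and they favour an anti-inflammatory and antithrombotic state. Other members act as repressors (KLF3 through CtBP, KLF10 and KLF11 through SIN3) or report hormone input (KLF9, a glucocorticoid and thyroid hormone target).

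What the members share is the finger block, so the coding bases of the last finger, from its first cysteine to its last histidine, are shown for 7 of them as GENCODE transcripts on GRCm38 give them. All 10 members had 3 such fingers in the translated coding sequence. Capitals mark the bases that differ from Klf2.
Klf2 (chr8:72320851-72320913, plus strand): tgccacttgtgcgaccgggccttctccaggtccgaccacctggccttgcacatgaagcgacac
Klf4 (chr4:55528131-55528193, minus strand): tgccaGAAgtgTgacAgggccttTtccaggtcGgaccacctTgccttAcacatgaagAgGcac
Klf6 (chromosome 13, plus strand, split over 2 exons): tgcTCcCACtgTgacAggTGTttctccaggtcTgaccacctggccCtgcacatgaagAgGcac
Klf5 (chr14:99313258-99313320, plus strand): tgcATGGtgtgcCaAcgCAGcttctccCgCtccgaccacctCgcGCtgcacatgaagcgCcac
Klf10 (chr15:38295995-38296057, minus strand): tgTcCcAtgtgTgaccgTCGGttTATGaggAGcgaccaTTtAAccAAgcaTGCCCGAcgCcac
Klf9 (chr19:23164790-23164852, plus strand): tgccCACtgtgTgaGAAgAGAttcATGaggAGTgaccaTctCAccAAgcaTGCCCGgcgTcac
Klf13 (chr7:63891628-63891690, minus strand): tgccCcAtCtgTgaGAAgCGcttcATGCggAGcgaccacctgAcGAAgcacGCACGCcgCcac
Of these 63 bases, Klf4 differed from Klf2 at 11, Klf6 at 14 and Klf5 at 15, whereas Klf13 differed at 26 and Klf9 and Klf10 at 28. The sequences also bear on the measurement, because a read that matches several members could be assigned to the wrong gene. Among the 45 pairs of members the longest identical run between the transcripts compared was 26 bases (Klf6 and Klf7), with a median of 14 bases.

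Gene-assigned reads numbered 15180389 to 18938592 in the IL-36β libraries and 15439602 to 19544689 in the untreated libraries. The endothelial label was checked with 8 markers, which summed to 2449 to 3048 FPKM with IL-36β and 2354 to 2715 FPKM in untreated cells (FPKM, fragments per kilobase of gene length on the authors' own scale per library). Pericyte markers summed to at most 5.72 FPKM and macrophage or microglia markers to at most 0.305 FPKM in any library. Smooth muscle markers, by contrast, ranged from 373 to 1396 FPKM over the 6 libraries, led by Acta2. Libraries whose names carry the letters A or B (IL-36β 1, untreated 1 and 2) stood apart from those lettered D or E (IL-36β 2 and 3, untreated 3), with 220 genes different between the sets. The letters are only names in the labels, and the sets were picked from these same data, so p-values that use them may overstate the evidence.

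All 10 Krüppel-like factors were expressed in both groups, and no difference between IL-36β and untreated cells passed the test. None of the 10 reached the threshold (limma on log2(FPKM + 0.5), Benjamini-Hochberg adjusted p under 0.05 over all genes tested), against 0.182% of all genes tested, and 1 had an unadjusted p under 0.05, against 10.4% of all genes. On the recovered reads edgeR and DESeq2 also called none of the 10, against 0.293% (edgeR) and 2.06% (DESeq2) of all genes called. At an unadjusted p under 0.05 each of these tools had 2 members, against 11.1% (edgeR) and 10.3% (DESeq2) of all genes. The fitted folds of IL-36β over untreated cells ran from 0.681 (Klf5) to 1.29 (Klf10). The 95% confidence interval lay between a halving and a doubling for 9 of the 10, as it did for 89.8% of all genes tested, so for these 9 a larger change in the mean level lies outside the interval. The IL-36β and untreated libraries did not overlap for 1 member, Klf10, which was higher with IL-36β, against 16.2% of all genes tested (8.95% without overlap and higher). The fitted fold was under 1 for 8 of the 10 and for 49.5% of all genes, and the median log2 fold change was -0.11 over the members and 0.0023 over all genes. These are bulk libraries, so fewer cells of a type and less RNA per cell cannot be told apart in any of these values.

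**Figure D1:**
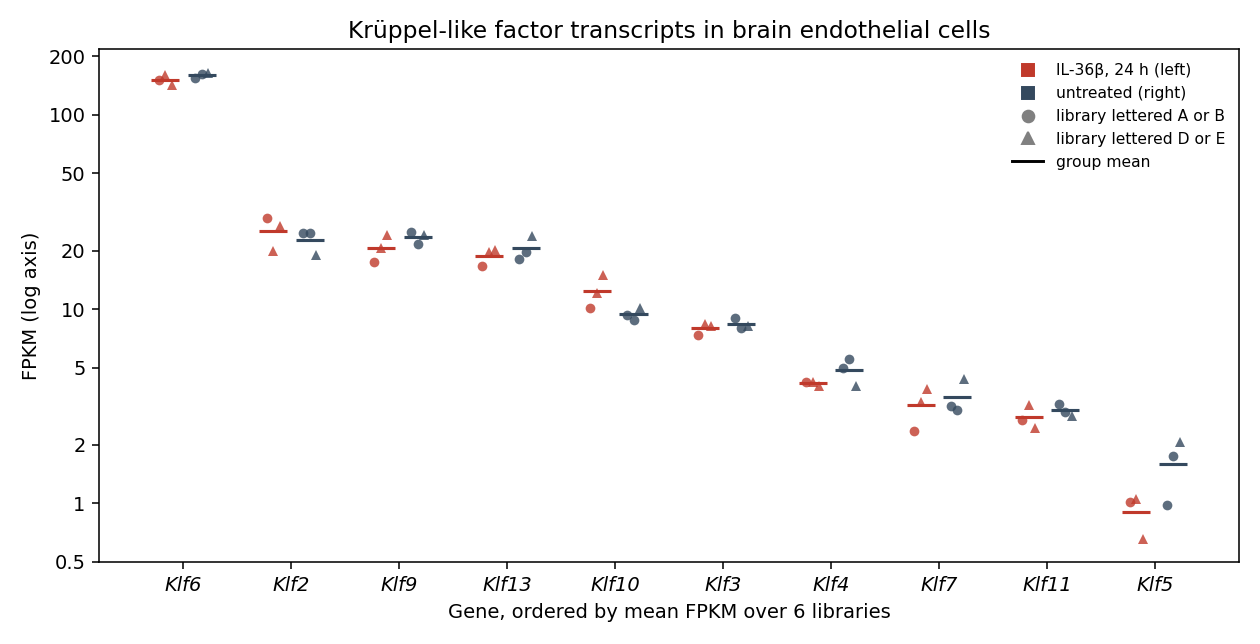
Level of each Krüppel-like factor in FPKM (log axis) in the 3 IL-36β libraries (red, left) and the 3 untreated libraries (blue, right); circles are libraries lettered A or B, triangles those lettered D or E, and bars are group means. Klf6 stands far above the rest, Klf5 lies lowest, and the 2 groups overlap for every gene except Klf10.

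The members differed far more from each other than between groups. Klf6 was the most abundant, with 151, 161 and 142 FPKM in IL-36β libraries 1 to 3 and 155, 161 and 164 FPKM in untreated libraries 1 to 3, and it made up 61.1 ± 3.16% of the summed FPKM of the 10 members with IL-36β and 62.2 ± 0.846% in untreated cells (SD, n = 3 each). Its mean level stood at percentile 97.9 of the genes tested. Klf2, Klf9 and Klf13 followed at means of 24.0, 22.1 and 19.7 FPKM over all 6 libraries. Klf2 exceeded Klf9 in 3 of 6 libraries, so these neighbours were not separated, while Klf9 exceeded Klf13 in 6 of 6 although their ranges overlapped. Klf10 (10.9 FPKM) and Klf3 (8.19 FPKM) came next, then Klf4 (4.50 FPKM), Klf7 (3.36 FPKM), Klf11 (2.90 FPKM) and Klf5 (1.26 FPKM). Klf4 exceeded Klf7 in 5 libraries and Klf7 exceeded Klf11 in 4, and their ranges overlapped. The gaps between Klf6 and Klf2, Klf13 and Klf10, Klf3 and Klf4, and Klf11 and Klf5 were free of overlap over all 6 libraries. This order and the share of Klf6 depend on the gene lengths behind FPKM, such as 11243 bases for Klf3 and 1847 for Klf2. By reads, Klf3 had 1278 to 1818 per library and Klf2 537 to 918. Together the 10 members summed to 248 ± 5.70 FPKM with IL-36β and 258 ± 4.57 FPKM in untreated cells (SD, n = 3 each), and these ranges, 242 to 253 FPKM against 254 to 263 FPKM, nearly touched.

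Of the flow-responsive pair, Klf2 lies on chromosome 8 (72319033 to 72321656, plus strand, GRCm38) and has 3 exons, all of them coding. It had 29.5, 19.9 and 26.7 FPKM in IL-36β libraries 1 to 3, against 24.6, 24.5 and 18.9 FPKM in untreated libraries 1 to 3, from 537 to 918 reads per library. The highest values were in IL-36β 1 and 3, while the lowest in each group belonged to the libraries lettered D, and the groups overlapped. The fold was 1.11 (95% confidence interval 0.840 to 1.46; limma adjusted p = 0.783). With the library set as a term the fold was 1.20 (0.978 to 1.48; limma adjusted p = 0.409), and within the sets it was 1.20 in A and B and 1.21 in D and E. The log2 fold change of 0.15 over all libraries was 0.032 without IL-36β library 1, 0.025 without untreated library 3 and 0.31 without IL-36β library 2.

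Klf4, also a reprogramming factor and a regulator of vascular smooth muscle, lies on chromosome 4 (55527143 to 55532466, minus strand). It had 4.23, 4.21 and 4.02 FPKM in the IL-36β libraries, against 4.97, 5.54 and 4.03 FPKM in the untreated libraries, with 189 to 342 reads per library. The IL-36β libraries lay close together, and untreated library 3 fell among them while the other untreated libraries were higher. The fold was 0.876 (0.712 to 1.08; limma adjusted p = 0.624), with 0.823 within A and B and 1.02 within D and E. Klf2 was therefore 6.97, 4.72 and 6.65 times Klf4 in the IL-36β libraries and 4.96, 4.43 and 4.69 times Klf4 in the untreated libraries. IL-36β library 2 overlapped the untreated libraries in this ratio, which was not tested.

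The promoters of Klf2, Klf4 and Klf6 are shown because these genes are the flow-responsive pair and the most abundant member and their windows hold some of the motifs searched (RefSeq, GRCm38.p6, 300 bases that end shortly after the start). Capitals mark the MEF2 consensus in Klf2, the cAMP response element core TGACG (here on the opposite strand) and the E-box CACGTG in Klf4, and the E-box in Klf6. The GC box, which all 3 hold, is left in lower case. So are the TGACG of Klf2 at position -241 and its CACCC at position -19 (on the opposite strand).
Klf2 (chr8:72318812-72319111, plus strand): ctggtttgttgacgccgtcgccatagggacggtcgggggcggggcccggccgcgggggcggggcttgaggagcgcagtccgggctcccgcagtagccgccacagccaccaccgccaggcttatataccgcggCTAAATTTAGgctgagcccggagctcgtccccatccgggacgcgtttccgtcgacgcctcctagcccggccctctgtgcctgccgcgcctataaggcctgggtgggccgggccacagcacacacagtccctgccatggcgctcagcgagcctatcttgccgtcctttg
Klf4 (chr4:55532426-55532725, minus strand): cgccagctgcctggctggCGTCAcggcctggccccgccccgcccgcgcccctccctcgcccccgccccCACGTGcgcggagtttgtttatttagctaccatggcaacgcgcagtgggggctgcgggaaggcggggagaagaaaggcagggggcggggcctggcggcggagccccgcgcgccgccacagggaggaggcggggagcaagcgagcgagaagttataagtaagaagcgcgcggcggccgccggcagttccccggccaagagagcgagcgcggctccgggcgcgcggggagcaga
Klf6 (chr13:5861239-5861538, plus strand): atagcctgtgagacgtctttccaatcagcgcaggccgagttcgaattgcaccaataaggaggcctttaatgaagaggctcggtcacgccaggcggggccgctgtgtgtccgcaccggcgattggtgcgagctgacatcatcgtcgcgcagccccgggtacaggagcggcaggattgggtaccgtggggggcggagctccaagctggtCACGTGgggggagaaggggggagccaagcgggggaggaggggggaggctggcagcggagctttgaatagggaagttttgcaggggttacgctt
Promoters of this table were searched on both strands for 8 of the 10 members and for 27025 genes in all. The MEF2 consensus matched 1 of the 8, Klf2, at position -118 from the start, and 3.26% of all promoters. The E-box matched 3 (Klf4, Klf6 and Klf11) and 7.24% of all promoters, and the GC box GGGCGG matched 7 and 35.9%. CACCC matched 5 and 56.7%, and TGACG matched 5 and 21% of all promoters. The NF-κB consensus matched none of the 8 and 8.18% of all promoters, and the serum response element (CArG box) none and 1.57%. The windows of Klf2, Klf4 and Klf6 were 69.3%, 74.3% and 63% G or C, against a median of 52.7% over all promoters. Such matches describe letters in a 300-base window and no binding was measured.

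Klf10, first known as TGF-β-inducible early gene 1, had the highest fitted fold of the members (chromosome 15, 38291463 to 38300706, minus strand). It had 10.1, 12.04 and 15.0 FPKM with IL-36β, against 9.36, 8.80 and 10.1 FPKM in untreated cells, from 635 to 1143 reads per library. The lowest IL-36β library, 1, and the highest untreated library, 3, nearly met, and IL-36β library 3 was the highest of all. The fold was 1.29 (1.02 to 1.63; limma adjusted p = 0.454) and missed the threshold, and with the library set as a term it was 1.21 (0.990 to 1.48; limma adjusted p = 0.383). A replicate block by library letter gave a log2 fold change of 0.18. The fold was 1.11 within A and B and 1.32 within D and E. Without IL-36β library 3 the log2 fold change was 0.22 where all libraries gave 0.37. Its close relative Klf11, TGF-β-inducible early gene 2, had a fold of 0.932 (0.756 to 1.15), from 2.67, 3.22 and 2.46 FPKM with IL-36β and 3.26, 2.96 and 2.82 FPKM in untreated cells. The groups overlapped for Klf11.

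Klf5, a factor of proliferating epithelium and of activated smooth muscle, was the rarest member and had the lowest fitted fold (chromosome 14, 99298691 to 99315036, plus strand). It had 1.02, 1.05 and 0.655 FPKM in the IL-36β libraries, against 0.983, 1.76 and 2.08 FPKM in the untreated libraries, from 62 to 185 reads per library. Untreated library 1 lay among the IL-36β libraries, and the other untreated libraries were higher. The fold was 0.681 (0.462 to 1.00; limma adjusted p = 0.487) and missed the threshold; it was 0.829 within A and B and 0.520 within D and E. With the library set as a term the fold was 0.657 (0.431 to 0.999, limma adjusted p = 0.367). A replicate block by library letter gave a log2 fold change of -0.35, where the pooled model gave -0.55. The scale of log2(FPKM + 0.5) understates changes of a gene this low. On the recovered reads the fold was 0.563 by edgeR (edgeR adjusted p = 0.388) and 0.562 by DESeq2 (DESeq2 adjusted p = 0.220). The 5 smooth muscle markers, all expressed at a mean of 0.5 FPKM or more, summed to 373, 825 and 530 FPKM in IL-36β libraries 1 to 3 and to 419, 738 and 1396 FPKM in untreated libraries 1 to 3. The markers and Klf5 were both highest in untreated library 3, and the part of these markers in the Klf5 values was not tested.

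Klf9, the hormone-responsive member, had 17.5, 20.7 and 23.9 FPKM with IL-36β, against 24.9, 21.5 and 23.9 FPKM in untreated cells. The groups overlapped through IL-36β library 3, and the fold was 0.881 (0.714 to 1.09; limma adjusted p = 0.641). Klf13, known in human T lymphocytes as a late activator of Ccl5, had 16.7, 19.8 and 20.1 FPKM with IL-36β, against 18.1, 19.6 and 23.9 FPKM in untreated cells. Its fold was 0.921 (0.747 to 1.14; limma adjusted p = 0.772), with IL-36β library 1 lowest and untreated library 3 highest. With the library set as a term the folds were 0.842 (0.693 to 1.02) for Klf9 and 0.862 (0.748 to 0.992) for Klf13, with limma adjusted p of 0.413 and 0.346. A replicate block by library letter gave log2 fold changes of -0.35 for Klf9 and -0.19 for Klf13. The pooled model gave -0.18 and -0.12.

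Klf6, an injury-response factor, and Klf3, the CtBP-binding repressor, varied least. The highest library was 1.16 times the lowest for Klf6 and 1.22 times for Klf3, over all 6 libraries. The fold of Klf6 was 0.943 (0.809 to 1.10) and that of Klf3 0.954 (0.813 to 1.12), with limma adjusted p of 0.775 and 0.824. Klf6 was read at 10273 to 14357 reads per library. Klf3 had 7.32, 8.40 and 8.22 FPKM with IL-36β and 8.96, 7.98 and 8.23 FPKM in untreated cells, with overlap.

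Klf7, a factor of neuronal outgrowth, had 2.36, 3.32 and 3.89 FPKM with IL-36β, against 3.19, 3.02 and 4.37 FPKM in untreated cells. In both groups the libraries lettered D or E were above those lettered A or B. The fold was 0.913 (0.663 to 1.26; limma adjusted p = 0.832), and its sign turned without IL-36β library 1 (log2 fold change 0.041) and without untreated library 3 (0.014). With the library set as a term the fold was 0.818 (0.678 to 0.987, limma adjusted p = 0.339). A replicate block by library letter gave a log2 fold change of -0.36, where the pooled model gave -0.13. The exons of the opposite-strand gene Gm26649 cover 3196 of the 8131 exon bases of Klf7, and Gm26649 was listed at 0 FPKM in every library. Whether the counting used strand is not stated in the labels.

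**Figure D2:**
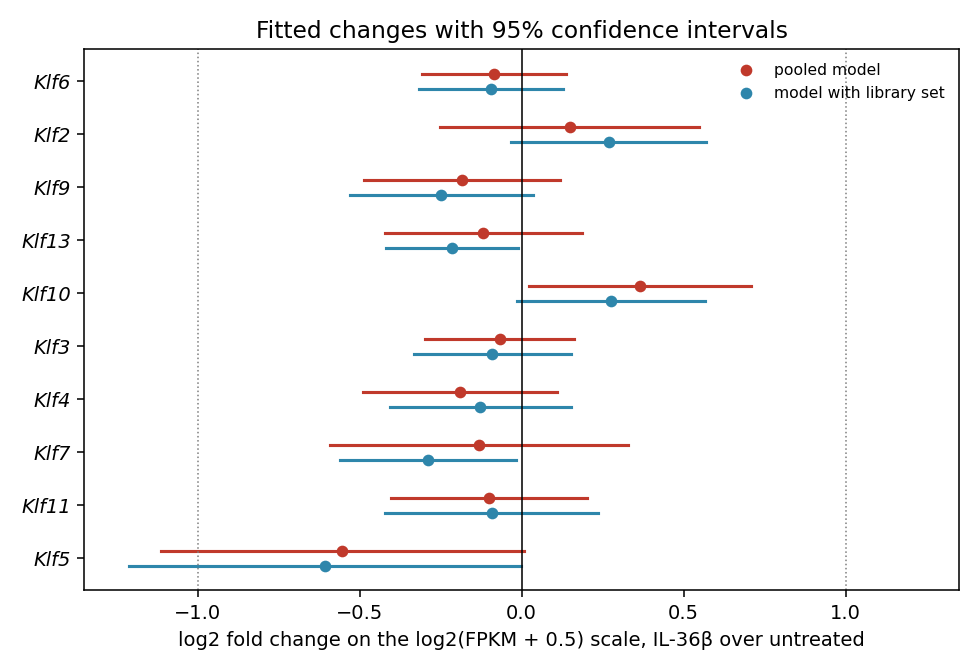
Fitted log2 fold change of IL-36β over untreated cells for each gene (point) with its 95% confidence interval (line), from the pooled model (red) and the model with the library set as a term (blue); dotted lines mark a halving and a doubling. The Klf5 intervals cross the halving line, and the other 9 genes lie between the dotted lines in both models.

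Part of the spread within groups lay between the library sets. The sets were picked from these same data, so the p-values and intervals given here for them may overstate the differences. In the model with both terms no member passed the threshold for the difference of D and E from A and B, against 1.74% of all genes tested, and 3 had an unadjusted p under 0.05, against 16% of all genes. Klf7 was 1.39 times as high in D and E (1.15 to 1.68; limma adjusted p = 0.107) and Klf13 1.22 times (1.06 to 1.41; limma adjusted p = 0.169). Klf2 was 0.779 times as high in D and E (0.633 to 0.960; limma adjusted p = 0.238). Neuronal markers moved with the sets too, at 13.5 to 24.2 FPKM in D and E and 5.22 to 6.57 FPKM in A and B; 1 of the 4, Tubb3, had a mean of 0.5 FPKM or more, and Snap25 was at 0 in every library. Fibroblast markers, 1 of 5 with such a mean, summed to 1.23 to 2.88 FPKM in D and E and 0.561 to 0.804 FPKM in A and B. Astrocyte markers, 1 of 4 with such a mean and Aqp4 and Slc1a3 at 0, went the other way, at 0.432 to 0.894 FPKM in D and E and 1.04 to 1.70 FPKM in A and B. The part of these markers in the member values was not tested. For IL-36β against untreated cells, that model called none of the 10 members, against 0.808% of all genes, with 3 at an unadjusted p under 0.05 (13.6% of all genes). Within-set differences had the same sign in both sets for 7 of the 10, and the share over all genes was not computed. They rest on 1 IL-36β library in A and B and on 1 untreated library in D and E.

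**Figure D3:**
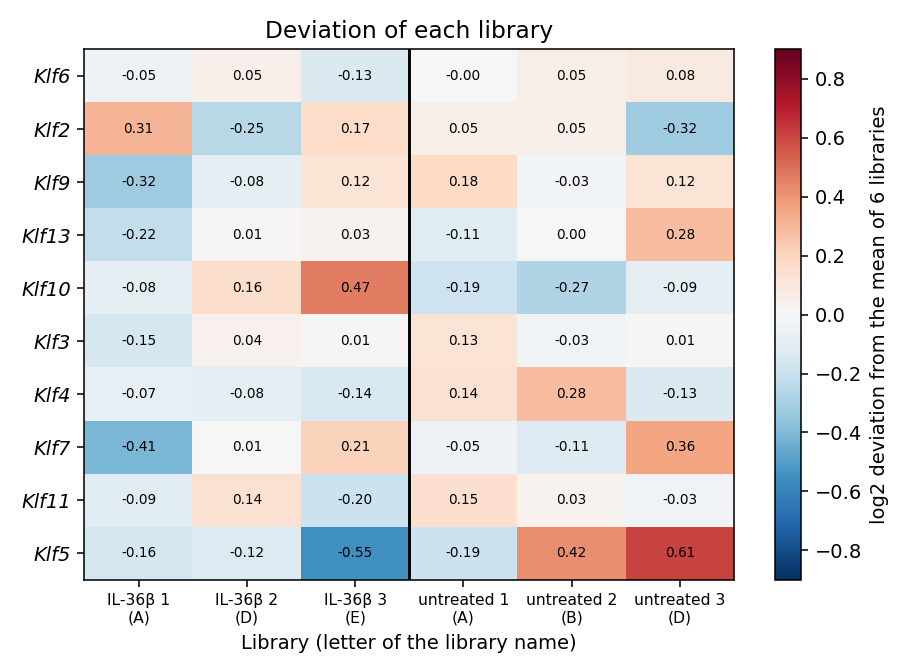
Deviation of each library from the mean of the 6 libraries for each gene, on the log2(FPKM + 0.5) scale, with IL-36β libraries left of the black line, untreated libraries right of it, and the letter of the library name below. Klf5 spans from -0.55 in IL-36β 3 to 0.61 in untreated 3, Klf7 is low in IL-36β 1, and Klf6 stays within 0.13 of its mean.

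Profiles over the 6 libraries were compared by the root mean square difference of centred log2 values. The member nearest to Klf2 was Klf4, at 0.25. The distance to the nearest member was larger for Klf10 (Klf3, at 0.26) and Klf5 (Klf13, at 0.33). Klf6 and Klf11 were nearest to each other at 0.092 and Klf7 and Klf13 at 0.12. Among the 6676 other genes with a mean of at least 5 FPKM searched for Klf2, the closest were Ppp1cc (0.040), Stard3 (0.044) and Trafd1 (0.049). Those closest to Klf4 were Khdc4 (0.039), Tstd3 (0.045) and Slc35e3 (0.054). Those closest to Klf5 were Klrg2 (0.085), Qpct (0.13) and Tpm2 (0.14), the last a tropomyosin of smooth and skeletal muscle. These profiles are a description over 6 libraries, with no test.

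Other members of the wider Sp and Krüppel-like family were measured alongside. Of 16 listed, 9 passed the filter on low values, and limma, edgeR and DESeq2 called none of these (median log2 fold change -0.10). In limma 1 of the 9 had an unadjusted p under 0.05, against 10.4% of all genes in either direction. The most abundant were Sp3, at 21.1 ± 2.42 FPKM with IL-36β and 22.6 ± 0.658 FPKM in untreated cells, Klf16, at 16.1 ± 1.98 FPKM with IL-36β and 14.6 ± 0.192 FPKM in untreated cells, and the Wnt-responsive Sp5, at 16.1 ± 2.03 with IL-36β and 14.5 ± 0.275 FPKM in untreated cells (SD, n = 3 each). The member with the unadjusted p under 0.05 was Klf15, a glucocorticoid-induced metabolic regulator, named after its values were seen. It had 0.554, 0.370 and 0.591 FPKM with IL-36β, against 1.04, 0.867 and 1.24 FPKM in untreated cells, without overlap. Its fold was 0.650 (0.487 to 0.867; limma adjusted p = 0.308), from 17 to 30 reads per IL-36β library and 47 to 53 per untreated library.

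Inputs to Klf2 and Klf4 were described by 17 genes of flow sensing, MEK5-ERK5-MEF2 signalling and the cerebral cavernous malformation complex, which restrains that signalling. By limma, edgeR and DESeq2 none was called (median log2 fold change -0.09). In limma 2 of the 17 had an unadjusted p under 0.05, 1 higher and 1 lower, against 10.4% of all genes in either direction. The higher was Hdac5, named after its values were seen, at 1.26-fold (1.02 to 1.54, limma adjusted p = 0.442), and the lower was Heg1. Piezo1, the mechanosensitive channel, was 50.3 ± 14.4 FPKM with IL-36β and 56.1 ± 7.12 FPKM in untreated cells, and Map3k3, the kinase above MEK5, was 47.3 ± 9.13 FPKM with IL-36β and 47.3 ± 4.47 FPKM in untreated cells (SD, n = 3 each). Mef2d, a MEF2 factor, was 21.4 ± 1.17 FPKM with IL-36β and 23.6 ± 1.06 FPKM in untreated cells, close together but without overlap (limma adjusted p = 0.609). Heg1, the membrane anchor of the malformation complex, had 33.1, 35.95 and 36.9 FPKM with IL-36β, against 47.1, 40.8 and 48.4 FPKM in untreated cells. These groups did not overlap, and the fold of 0.782 (0.665 to 0.919) missed the threshold (limma adjusted p = 0.298).

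Genes that KLF2 or KLF4 are known to raise in endothelium formed the next list. Of 14 listed, 12 were tested and neither limma nor edgeR called any; at an unadjusted p under 0.05 there were 4, 3 higher and 1 lower, against 10.4% of all genes in either direction. The fitted fold was above 1 for 9 of the 12, and the median log2 fold change was 0.27 over all 12, against 0.0023 over all genes. The most abundant were Hmox1, the haem-degrading enzyme, at 893 ± 230 FPKM with IL-36β and 721 ± 161 FPKM in untreated cells, and the sphingosine-1-phosphate receptor S1pr1, at 220 ± 11.5 FPKM with IL-36β and 210 ± 19.6 FPKM in untreated cells (SD, n = 3 each). Thbd, Nos3, Gja4, Adamts1 and Plpp3 were picked with their values in view. Thbd, the anticoagulant thrombomodulin, had 35.1, 37.7 and 35.0 FPKM with IL-36β, against 43.1, 47.2 and 50.7 FPKM in untreated cells, without overlap. Its fold was 0.768 (0.660 to 0.894; limma adjusted p = 0.228); DESeq2 gave an adjusted p of 0.0487, with 0.793% of all genes called lower by that tool. Nos3, the endothelial nitric oxide synthase, had 16.8, 21.0 and 37.0 FPKM with IL-36β and 18.6, 13.5 and 20.8 FPKM in untreated cells, with overlap. Gja4, the gap junction protein connexin 37, had 3.90, 2.60 and 3.62 FPKM with IL-36β, against 1.97, 1.55 and 1.93 FPKM in untreated cells, with no overlap; its fold was 1.66 (1.27 to 2.17; limma adjusted p = 0.199). Adamts1, a secreted protease, and Plpp3, a lipid phosphatase, were the other higher genes under an unadjusted p of 0.05, both without overlap, at 1.24-fold (1.08 to 1.43; limma adjusted p = 0.292) and 1.32-fold (1.11 to 1.56; limma adjusted p = 0.264).

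Genes that KLF2 or KLF4 are known to hold down included the inflammatory adhesion genes. This list, like the others, was chosen with earlier results of these data known, so its counts beside all genes are a description and no test. Of 11 listed and tested, 1 rose and none fell, against 0.166% and 0.0159% of all genes in those directions. The gene that rose was Sele, which encodes E-selectin. It had 4.25, 5.28 and 3.55 FPKM with IL-36β, against 1.16, 1.27 and 0.759 FPKM in untreated cells, 3.11-fold (2.29 to 4.22, limma adjusted p = 0.0322). The groups of Sele lay far apart. Those of Klf2 and Klf4 overlapped, and a link of either gene to Sele was not tested. DESeq2, and limma with the library set as a term, each called 3 of the 11 higher (Sele, the adhesion receptor gene Vcam1 and the chemokine gene Ccl2), against 1.27% (DESeq2) and 0.674% (limma with the set) of all genes. Ccl2 was 1321 ± 171 FPKM with IL-36β and 307 ± 145 FPKM in untreated cells, and Vcam1 was 139 ± 12.3 FPKM with IL-36β and 46.4 ± 17.9 FPKM in untreated cells (SD, n = 3 each); in the pooled model their limma adjusted p were 0.107 and 0.112. The median log2 fold change over the 11 was 0.08, with 5 below 0. Among those, F3, which encodes tissue factor and was named with its values in view, had 44.7, 30.2 and 10.8 FPKM with IL-36β and 49.6, 74.4 and 41.8 FPKM in untreated cells, with overlap (limma adjusted p = 0.487).

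**Figure D4:**
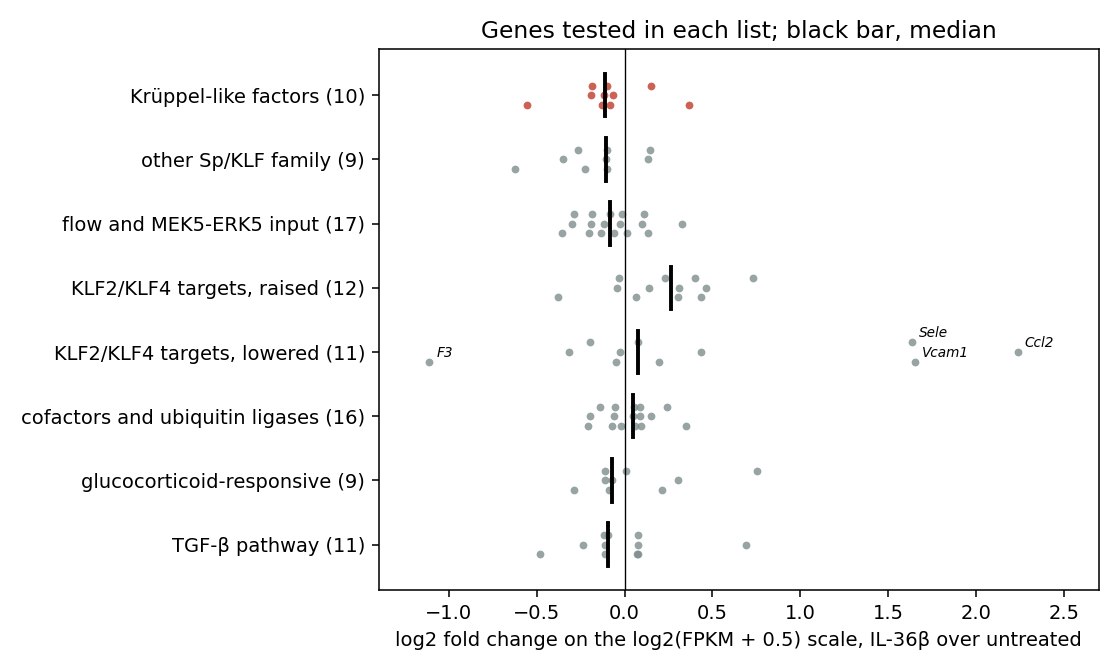
Fitted log2 fold change of IL-36β over untreated cells for every tested gene of each list (points; number tested in brackets), with the list median as a black bar. The 10 Krüppel-like factors lie between -0.55 and 0.37, and the points beyond a doubling or halving, which are labelled, are all in the list of genes lowered by KLF2 or KLF4.

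Cofactors and ubiquitin ligases of the family were followed through 16 genes. Of these, none passed in limma, edgeR or DESeq2 (median log2 fold change 0.049). In limma 1 of the 16 had an unadjusted p under 0.05, against 10.4% of all genes in either direction. Ctbp1, the corepressor bound by KLF3, was 49.0 ± 6.82 FPKM with IL-36β and 44.0 ± 2.55 FPKM in untreated cells, and Fhl3, a LIM-domain partner of KLF3, was 43.5 ± 8.09 FPKM with IL-36β and 34.0 ± 6.04 FPKM in untreated cells (SD, n = 3 each). Smurf1, a ubiquitin ligase that targets KLF2, was 34.6 ± 3.40 FPKM with IL-36β and 36.3 ± 2.51 FPKM in untreated cells, with overlap.

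For the hormone input to Klf9, 9 glucocorticoid-responsive genes were tested. Neither limma nor edgeR called any, and at an unadjusted p under 0.05 there were 3, 2 higher and 1 lower, against 10.4% of all genes in either direction. The median log2 fold change was -0.07. Dusp1, a phosphatase of MAP kinases, was 217 ± 35.5 FPKM with IL-36β and 187 ± 19.5 FPKM in untreated cells, and the kinase gene Sgk1 was 162 ± 26.9 FPKM with IL-36β and 172 ± 21.1 FPKM in untreated cells (SD, n = 3 each). Cebpd, also an inflammatory acute phase factor, had 63.7, 46.8 and 62.1 FPKM with IL-36β, against 35.8, 33.6 and 31.6 FPKM in untreated cells. It did not pass in the pooled model (fold 1.69, 1.36 to 2.10; limma adjusted p = 0.118), and DESeq2 and limma with the library set as a term called it higher (adjusted p = 8.49e-05 and 0.0498), as they did 1.27% (DESeq2) and 0.674% (limma with the set) of all genes. Nr3c1, the glucocorticoid receptor, was the lower gene under an unadjusted p of 0.05 and was named with its values in view. It had 10.3, 11.2 and 10.3 FPKM with IL-36β, against 14.03, 13.3 and 11.9 FPKM in untreated cells, without overlap (fold 0.817, 0.699 to 0.956; limma adjusted p = 0.384).

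For the TGF-β input to Klf10 and Klf11, 11 genes were tested, and limma and edgeR called none (median log2 fold change -0.10). In limma 2 of the 11 reached an unadjusted p under 0.05, against 10.4% of all genes in either direction. Tgfbr2, the ligand-binding receptor, was 97.1 ± 16.2 FPKM with IL-36β and 91.9 ± 12.9 FPKM in untreated cells (SD, n = 3 each). The pair with an unadjusted p under 0.05, named after their values were seen, were the ligand Tgfb1 and the inhibitory Smad7. Tgfb1 had 46.4, 34.1 and 49.6 FPKM with IL-36β, against 30.6, 26.7 and 22.3 FPKM in untreated cells (fold 1.62, 1.22 to 2.14; limma adjusted p = 0.231). Smad7 had 7.07, 6.98 and 6.07 FPKM with IL-36β, against 8.42, 11.04 and 9.39 FPKM in untreated cells (fold 0.715, 0.585 to 0.874; limma adjusted p = 0.254). The groups overlapped for neither, and by DESeq2 Tgfb1 was called higher and Smad7 lower (adjusted p = 0.00704 and 0.0488), against 1.27% of all genes called higher and 0.793% called lower by DESeq2.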

How the data were processed

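An Illumina NextSeq instrument read stranded mRNA libraries, 3 of IL-36β and 3 of untreated cells, per the labels' protocols. The build GRCm38, DESeq2 1.38.3, featureCounts, HISAT2 2.05, StringTie and fastp stand in the submitters' processing notes, with neither roles nor settings. The authors deposited FPKM for 54532 genes. A second table deposited by the authors, of 660 genes, gives raw counts, a normalized signal, log2 fold changes and p-values; it holds none of the 10 members, and its counts served only to recover reads. Its 8 columns of 4 libraries that match no label were not used. FPKM times gene length, divided by a scale per library that was set from those deposited counts, gave whole reads (within 0.01) for 100% of values. The reads equalled the deposited counts in all 660 genes.

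Tests used limma 3.58.1 (R 4.3.3, trended prior, two-sided) on log2(FPKM + 0.5) for genes with at least 0.5 FPKM in at least 3 of 6 libraries. Folds and 95% intervals are on that scale, which understates changes of low genes; levels are plain FPKM. edgeR 4.0.16 and DESeq2 1.42.0 ran on the recovered reads. The limma test was tested on simulated data. Samples were grouped by title. Named were all members, list genes past the threshold or otherwise the most abundant of a list, and the 3 nearest profiles of Klf2, Klf4 and the member with the largest fitted change of the rest; others are marked as chosen after their values were seen. The members and lists were chosen with earlier results of these data known. Alternatives were other pseudocounts, filters, scalings, a robust prior, replicate blocks, the library set and leaving out each library.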

Additional observations from a re-analysis of the deposited data

How the results depend on the processing

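No Krüppel-like factor was called under any of the 18 alternatives; the lowest adjusted p of a member was 0.220 (Klf5, DESeq2). Of 180 refitted values 178 kept their direction. Changed filters, the robust prior and the block by title number leave a fitted fold as it is, so their agreement was fixed beforehand. Klf7 reversed without IL-36β replicate 1 (log2 fold change 0.041) and without untreated replicate 3 (0.014). Its range was -0.27 to 0.041 when each library was left out. The count of all genes called, 23, was more sensitive: it was 0 with no filter on low values (limma; 1751 at an unadjusted p under 0.05), 15 on TPM scaling, 102 in the fit that adds the library set, 260 with DESeq2, 37 with edgeR, and 2 to 8 when any 1 library was left out (6, 2 and 4 without IL-36β libraries 1 to 3, and 4, 2 and 8 without untreated libraries 1 to 3). With a replicate block by title number it was 13, and with a replicate block by library letter, which leaves few residual degrees of freedom, 78. Same-numbered libraries did not deviate together throughout (correlations of 0.207, -0.141 and 0.211), so the titles' numbers were not taken as a pairing. The letters in the library names disagree with these numbers for IL-36β replicates 2 and 3 and untreated replicate 3; A and D occur in both groups, with correlations of 0.207 (A) and 0.275 (D), and the labels do not say what a letter marks. For the members, both blocks called none of the 10. The cause of the shifts in the count was not tested. With 3 libraries per group, only the confidence intervals bound what could be missed.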
